A study of Mus musculus with 8 samples.

Results

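RNA bound by NONO in mouse liver nuclei was compared between 10 h and 2 h of re-feeding, using the anti-NONO peak list of each time. The members were the regions formed by joining the 10 h list of 50609 peaks with the 2 h list of 61737 peaks wherever peaks overlapped by 1 bp, which gave 84637 regions over both times. The 4 peak lists of the series held 206501 peaks in all. A gene body was then described by the summed normalised tags (tags scaled to a library of 10000000) of the peaks that overlapped it, and 10019 genes carried a peak at either time.

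Both groups were wild-type C57BL/6 mice aged 14 weeks, housed at 12 h light and 12 h dark and given food in the dark phase alone during the week before. The 10 h re-fed livers were taken at zeitgeber time 22 and the 2 h re-fed livers at zeitgeber time 14, so time of day and time since feeding differed together and cannot be told apart. Nuclei were isolated, the lysate was immunoprecipitated with anti-NONO, and each immunoprecipitate was set against its own input; an IgG immunoprecipitate served as background, and its feeding state and time of day are not in the labels. Each library pooled 2 experiments, and with 1 library a time there was no replicate error: differences are given as values, with no p-value. A gene was counted as higher at one time where its summed tags, plus 10, differed at least 2-fold.

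NONO is a nuclear RNA-binding protein of the DBHS family, which binds as a dimer with SFPQ or PSPC1. It is a core component of paraspeckles, nuclear bodies assembled on the long non-coding RNA Neat1, and it takes part in transcription, splicing and the retention of RNA in the nucleus. NONO also binds PER proteins of the circadian clock. The liver switches with feeding between glucose output and the storage of glucose as glycogen and fat, and many of its transcripts follow the time of day as well.

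Sequences are shown for a few regions chosen as examples. The pair of IgG-free regions (no IgG peak overlapping by 1 bp) with the most tags at 10 h only lay over small RNA genes inside longer genes. One, chr7:111075761-111076639 (mm10) in Eif4g2, a translation factor gene, covered the snoRNA gene Gm23262. The other, chr3:69084492-69085211 in Kpna4, an importin gene, covered the last 107 bases of the scaRNA gene Gm22009. GENCODE gives both on the minus strand, and they are shown 5′ to 3′ with no part marked.
Gm23262 (chr7:111076060-111076227): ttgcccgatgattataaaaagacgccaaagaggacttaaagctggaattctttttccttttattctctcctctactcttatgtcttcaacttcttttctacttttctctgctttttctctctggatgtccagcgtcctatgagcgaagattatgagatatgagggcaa
Gm22009 (chr3:69085105-69085211): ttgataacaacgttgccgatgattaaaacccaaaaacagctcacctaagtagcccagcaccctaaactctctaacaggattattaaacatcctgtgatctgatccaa

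MicroRNA genes gave a second set, because a cluster of several hairpins lay under 1 region and the clusters differed between the times. The mature sequences are RefSeq's (GRCm38.p6), with the seed, bases 2 to 8, in capitals. The let-7 cluster on chromosome 13 lay under a region present at both times, and its 5p arms share 1 seed.
mmu-let-7a-5p: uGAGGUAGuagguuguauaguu
mmu-let-7f-5p: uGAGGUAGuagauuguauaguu
mmu-let-7d-5p: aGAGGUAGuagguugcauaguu
The Mir17 to Mir92-1 cluster on chromosome 14 lay under a region called at 2 h only, and the arms shown fall into 4 seed groups.
mmu-miR-17-5p: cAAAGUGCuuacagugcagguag
mmu-miR-20a-5p: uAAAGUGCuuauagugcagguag
mmu-miR-18a-5p: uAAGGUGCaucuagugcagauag
mmu-miR-19a-3p: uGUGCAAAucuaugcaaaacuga
mmu-miR-19b-3p: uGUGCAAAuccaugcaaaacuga
mmu-miR-92a-3p: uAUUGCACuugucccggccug

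The regions fell into 3 classes. Of the 84637 regions, 23857 (28.2%) were called at 10 h only, 36960 (43.7%) at 2 h only and 23820 (28.1%) at both times. Seen from each list, 52.9% of 10 h peaks (95% exact Clopper-Pearson interval 52.4 to 53.3, counting error only) and 40.1% of 2 h peaks (39.7 to 40.5) lay in a shared region. By tags, 70.2% of the tags in 10 h peaks and 67.9% of those in 2 h peaks were in shared regions. Regions called at 1 time were mostly small: a median of 500 bp and 13.1 normalised tags at 10 h only, and 630 bp and 12.8 normalised tags at 2 h only, against a median width of 1525 bp for shared regions. The authors' threshold of 11 tags equals 6.02 normalised tags at 10 h and 5.22 at 2 h, so a region without a peak may still hold tags below it. Peaks at 2 h were broader, with a median width of 643 bp at 10 h and 720 bp at 2 h, and 117 peaks at 10 h against 1082 at 2 h were wider than 5 kb. When peaks within 1000 bp were also joined, the shared class grew to 39.4% of regions, beside 14653 regions at 10 h only and 22936 at 2 h only.

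The libraries differed in how much signal lay in peaks. The 10 h library held 18275033 tags with 17.3% in peaks, and the 2 h library 21091048 tags with 26.0% in peaks. Median fold over input, as the authors give it, was 2.84 at 10 h and 3.13 at 2 h. An IgG peak met 27.1% of regions at 10 h only, 30.4% of those at 2 h only and 56.7% of the shared ones. A fasted NONO peak met 18.3%, 19.2% and 47.0% of the same classes. Of 7 hepatocyte markers 4 carried a peak, with 13902 summed tags at 10 h and 8890 at 2 h, and Apoa1, Ttr and Serpina1a carried none at either time. None of 6 cholangiocyte markers carried one, Kupffer cell markers summed to 40.0 tags at 10 h and 33.6 at 2 h over 4 of 7 genes, and Ptprc was the 1 of 7 lymphocyte and erythroid markers with a peak. Endothelial markers summed to 1326 tags at 10 h and 1373 at 2 h over 4 of 7 genes, and stellate cell markers to 82.1 and 40.8 tags over 2 of 7. In bulk nuclei, fewer cells of a type and less RNA per cell cannot be told apart.

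**Figure D1:**
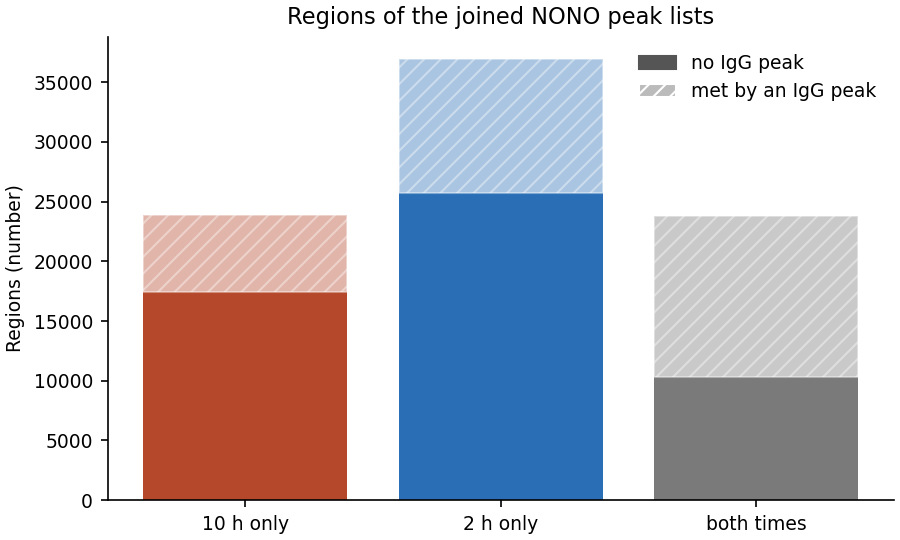
Number of regions called at 10 h only, at 2 h only and at both times. Solid parts had no IgG peak and hatched parts were met by one; the 2 h only class is the tallest at 36960 regions, and 56.7% of the shared class is hatched.

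Regions of all 3 classes lay mostly in introns. Introns held the midpoint of 85.3% of regions at 10 h only, 86.9% of those at 2 h only and 87.6% of shared regions. UTR exons held 3.36%, 2.15% and 1.60% of the same classes. Within genes of at least 50 kb, regions at 10 h only lay somewhat further from the gene start, at a median of 52.5% of the gene length, against 46.8% for regions at 2 h only and 47.3% for shared regions. The last 25% of the length of such genes held 27.1% of regions at 10 h only, 21.8% of those at 2 h only and 21% of the shared ones. Without regions that IgG met, these shares were 27.5%, 22% and 22.8%.

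Shared regions were close in enrichment between the times. The tags in a shared region had a median log2 ratio (10 h over 2 h) of -0.20, while the tag density per kb of peak had one of 0.14 and the fold over input one of -0.06. Density was at least 2-fold higher at 10 h in 1090 of 23820 regions (4.58%) and at 2 h in 344 (1.44%). Input density, obtained as tags over the authors' fold, was also at least 2-fold higher on the same side in 1039 of the 1090 (95.3%) and 322 of the 344 (93.6%). The fold over input itself was at least 2-fold higher at 10 h in 401 regions (1.68%) and at 2 h in 833 (3.50%). Among the 1882 shared regions with at least 100 normalised tags at both times, that was so for 2 regions on each side. Across the 23820 regions, the log2 ratios of immunoprecipitate and input density had a Pearson r of 0.83 and a Spearman rho of 0.84. Regions are not independent replicates, and both values come from the same pair of libraries and share the authors' fold threshold.

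**Figure D2:**
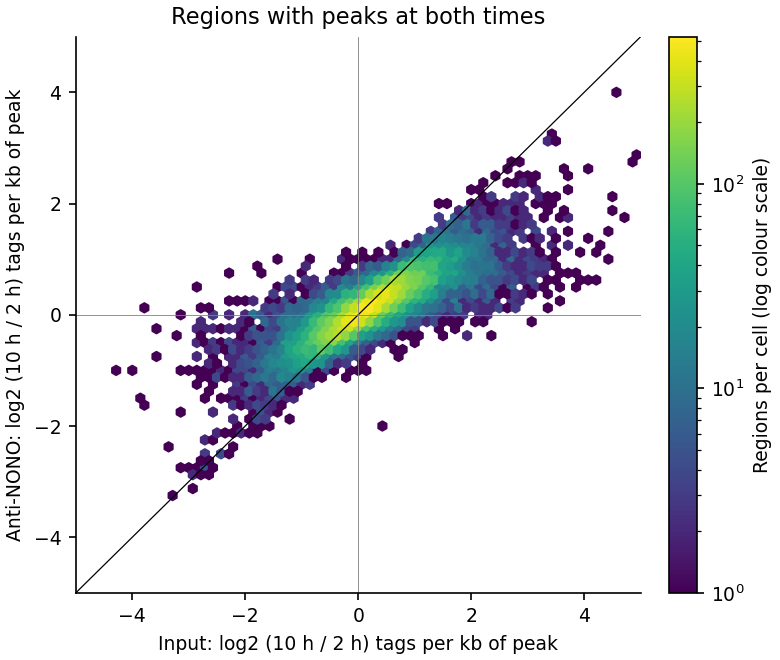
Log2 ratio (10 h over 2 h) of tags per kb of peak in the anti-NONO libraries (vertical axis) against the same ratio in the inputs (horizontal axis), for the 23820 shared regions; colour counts regions on a log scale and the black line marks equal ratios. The cloud runs along the diagonal, with r = 0.83.

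At the level of genes, 7036 of the 10019 genes had a peak at both times, 1300 at 10 h only and 1683 at 2 h only. Summed tags were at least 2-fold higher at 10 h in 1542 genes (15.4%) and at 2 h in 2442 genes (24.4%), which are the backgrounds for the counts on all peaks. Of the 9205 genes left without peaks met by IgG, 17.8% were higher at 10 h and 23.3% at 2 h, and of the 8169 left at 3-fold over input, 14.1% and 28% were. Genes with peaks at both times had a median log2 ratio of -0.32. With that median removed, 2075 genes (20.7%) were higher at 10 h and 1917 (19.1%) at 2 h, so the balance between the sides depends on the scaling. No peak at the other time accounted for 900 of the 1542 genes higher at 10 h and 1060 of the 2442 higher at 2 h. Of genes with peaks at both times, the input in those peaks was also at least 2-fold higher in 630 of 642 genes higher at 10 h and in 1320 of 1382 higher at 2 h. Input is tags over the authors' fold in each list's own peaks, so it moves with the tags and the length called. Between the 5th and 95th percentile, log2 ratios of the fold pooled over a gene's peaks ran from -0.74 to 0.51. Those input counts were thus largely set in advance and are no separate measure of input. The fold over input, pooled over a gene's peaks, was at least 1.5-fold higher at 10 h in 285 of the 7036 genes and at 2 h in 570. Genes higher at 10 h had a median length of 18.3 kb and those higher at 2 h 25.7 kb, against 28.7 kb for all genes with a peak.

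**Figure D3:**
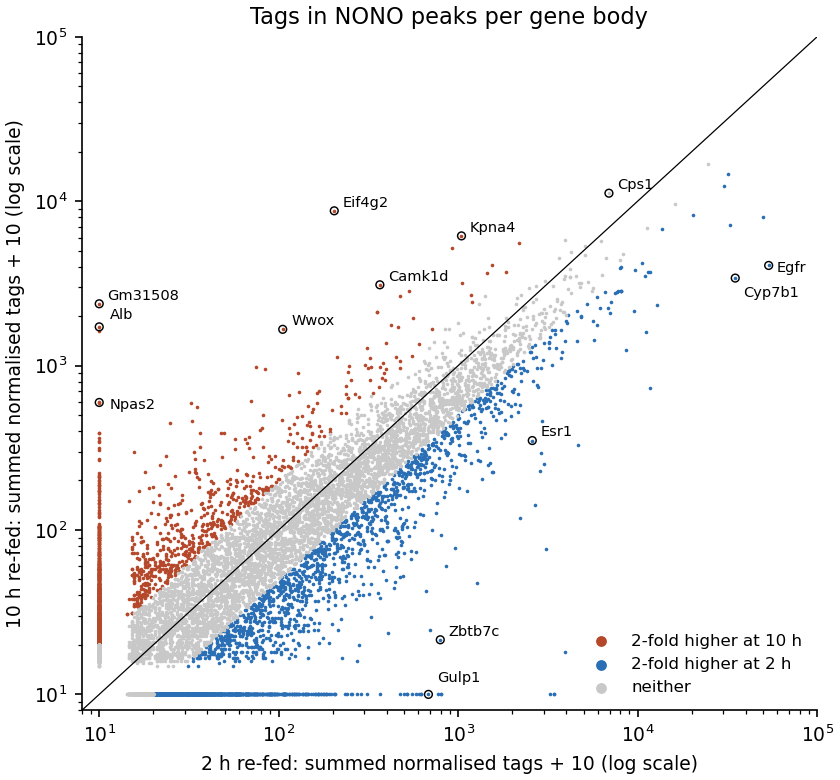
Summed normalised tags of NONO peaks per gene body, 10 h re-fed (vertical axis) against 2 h re-fed (horizontal axis), each with 10 added and on a log axis; the line marks equality, and orange and blue points are the 1542 and 2442 genes at least 2-fold higher at 10 h and at 2 h. Points along the axes have no peak at the other time, such as Npas2 at 2 h and Gulp1 at 10 h.

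On the 10 h side, Npas2 carried many peaks at that time and none at 2 h. This gene encodes a partner of BMAL1 in the positive arm of the clock and lies at chr1:39193731-39363236 on the plus strand. Its 10 h peaks numbered 23 and held 586.5 normalised tags. The fasted list had none, and IgG peaks met none of the 23. Single Npas2 peaks held 6.57 to 66.2 normalised tags and were spread from 1.63 kb to 161 kb from the gene start, so the sum rests on many weak peaks along the body. The input at these positions at 2 h is unknown, since the authors list input only through called peaks.

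The other genes with the largest ratios on the 10 h side, among genes with at least 200 tags and 3 IgG-free regions, included long non-coding RNA genes and long protein-coding genes. Gm31508, a lincRNA gene of chromosome 12, carried 2366 tags in 23 peaks at 10 h and no peak at 2 h, with 1254 tags in IgG-free peaks. Gm12718, another lincRNA gene, had 547.8 tags at 10 h and 25.1 at 2 h. Syne1, which encodes a nuclear envelope protein, had 582.3 tags at 10 h and 22.3 at 2 h. Shank2, a scaffold protein gene, had 434.8 tags at 10 h and 14.7 at 2 h. Gpr39, which encodes a zinc-sensing receptor, had 287.7 tags at 10 h and 5.69 at 2 h, the last from a single peak. The uncharacterised gene 2010315B03Rik had 298.2 tags in 3 peaks at 10 h and no peak at 2 h. A further 4 long genes on this side were taken from earlier results of these data. Wwox, an oxidoreductase gene, had 1651 tags at 10 h and 95.3 at 2 h. Slc4a4, a bicarbonate transporter gene, had 1744 tags at 10 h and 409.7 at 2 h, and Erbb4, a receptor tyrosine kinase gene, had 3186 tags at 10 h and 1039 at 2 h; at 3-fold over input their log2 ratios were 0.76 and 0.45, short of 2-fold. Camk1d, a kinase gene, had 3089 tags at 10 h and 356.1 at 2 h, but among peaks of at least 3-fold over input its log2 ratio was -1.06.

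A few 10 h peaks were tall and narrow instead. The Eif4g2 peak over Gm23262 held 8657 tags at 3.07-fold over input, and the nearest 2 h peak lay 2038 bp away. Its clonal fold, by which HOMER drops peaks with many reads at few positions, was 1.95, just under the limit of 2. The Kpna4 peak over Gm22009 held 5423 tags at 2.53-fold with a clonal fold of 0.69, and a fasted peak met it. Over the whole gene, Eif4g2 summed to 8727 tags at 10 h and 193.9 at 2 h, and Kpna4 to 6138 tags at 10 h and 1033 at 2 h, with a log2 ratio for Kpna4 of 0.59 at 3-fold over input. Alb, the albumin gene, had a single intronic peak of 1710 tags at 2.05-fold at 10 h and none at 2 h. IgG peaks over Alb held 3263 tags, and the nearest IgG peak lay 384 bp from the 10 h peak. Fgb, a fibrinogen chain gene, had a single peak of 1608 tags at 2.07-fold at 10 h and none at 2 h. Both folds stand just above the threshold of 2.

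On the 2 h side Gulp1, which encodes an engulfment adaptor protein, mirrored Npas2. It lies at chr1:44551511-44796838 on the plus strand and carried 35 peaks with 672.5 tags at 2 h, and no peak at 10 h. Neither the fasted nor the IgG list had a peak in it. Its peaks held 5.22 to 82.5 tags, and 27 of the 35 began within 100 kb of the gene start. Zbtb7c, a zinc finger factor gene, had 11.5 tags at 10 h and 784.6 at 2 h. Fkbp5, a co-chaperone of the glucocorticoid receptor and a known glucocorticoid target, had no peak at 10 h and 229.9 tags in 16 peaks at 2 h. The fasted list also had 16 Fkbp5 peaks, with 961.2 tags.

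**Figure D4:**
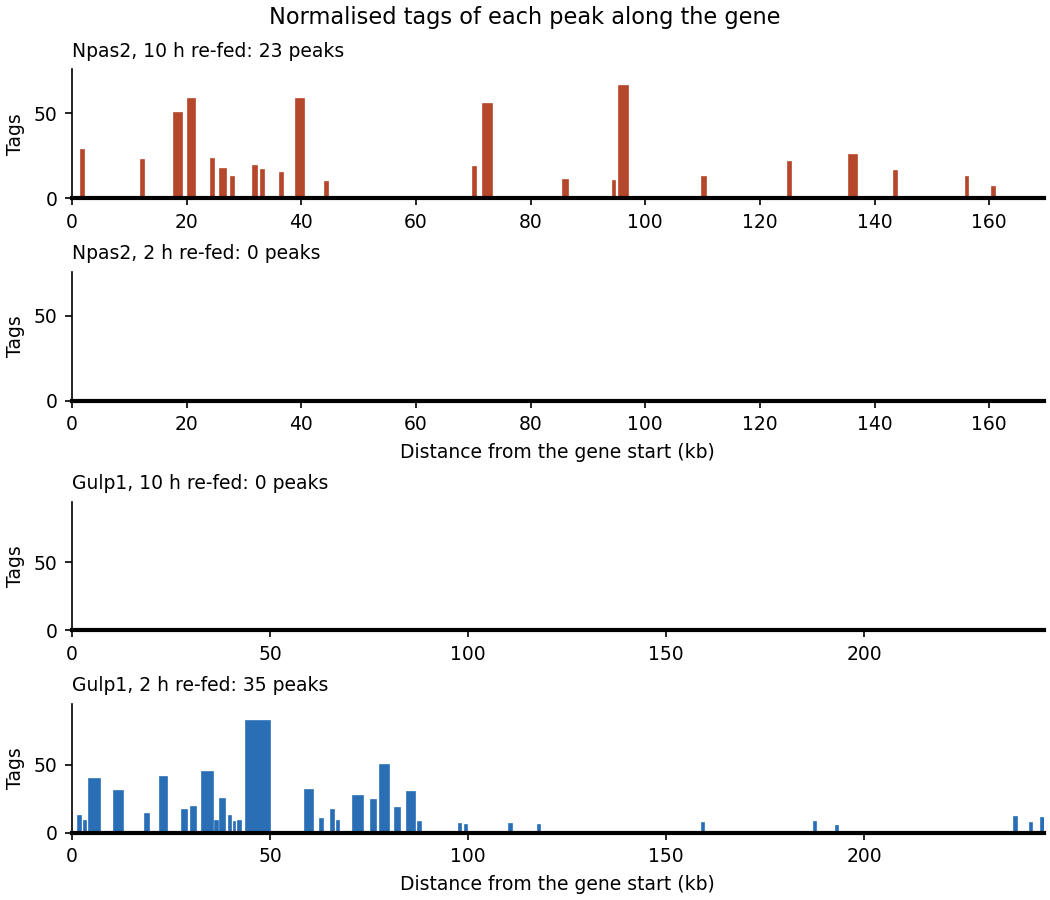
Peaks along Npas2 and Gulp1, with the 10 h re-fed list above the 2 h re-fed list for each gene; bars span each peak, bar height gives its normalised tags, and the horizontal axis gives the distance from the gene start in kb. Npas2 shows 23 peaks at 10 h and none at 2 h, and Gulp1 none at 10 h and 35 at 2 h.

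Further genes of the 2 h side encode transcription, signalling and metabolic proteins. Pbx3, a homeodomain factor gene, had 13.7 tags at 10 h and 394.4 at 2 h. Scara5, a ferritin receptor gene, had 6.02 tags at 10 h and 261.6 at 2 h. Esr1, the oestrogen receptor gene, had 339.9 tags at 10 h and 2576 at 2 h in 22 and 76 peaks. Dnase2b had 132.4 tags at 10 h and 2676 at 2 h, but all of them came from peaks that also lie over Uox, the urate oxidase gene, and at 3-fold over input its log2 ratio was 0.51, and that of Uox was 0.35. Naaladl2 had 1420 tags at 10 h and 5664 at 2 h, and Snx29, a sorting nexin gene, had 178.4 tags at 10 h and 696.5 at 2 h. Magi1, a scaffold gene of cell junctions, was on neither side, with 5349 tags at 10 h and 5108 at 2 h. Its log2 ratio was 1.01 without peaks met by IgG and -0.83 at 3-fold over input.

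The largest amounts of tags at 2 h lay over 3 long genes of hepatocyte metabolism and growth signalling. Egfr, the epidermal growth factor receptor gene, had 4054 tags at 10 h and 53669 at 2 h. The whole length of its peaks, parts outside the gene included, equalled 29.6% of the gene length at 10 h and 59.6% at 2 h. Cyp7b1, the oxysterol hydroxylase gene of bile acid synthesis, had 3395 tags at 10 h and 34951 at 2 h. Its peak length equalled 23.0% and 71.1% of the gene length. Ghr, the growth hormone receptor gene, had 7146 tags at 10 h and 32526 at 2 h, with peak length at 12.1% and 52.0%. Pooled fold over input was close between the times, at 2.24 at 10 h and 2.29 at 2 h for Egfr, 2.39 and 2.84 for Cyp7b1, and 2.19 and 2.28 for Ghr. Input in the peaks, being tags over fold, moved with the tags and the length called: it was 1808 normalised tags at 10 h and 23476 at 2 h for Egfr. Most of these tags lay in peaks that IgG met. In IgG-free peaks Egfr had 733.8 tags at 10 h and 4885 at 2 h, whereas Cyp7b1 had 705.8 at 10 h and 513.0 at 2 h, which turned its log2 ratio to 0.45. For Ghr, the log2 ratio was 0.47 among peaks of at least 3-fold over input, and Egfr had no such peak.

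Of 22 clock genes, 20 carried a peak; 4 were higher at 10 h, among them the positive-arm genes Npas2 and Arntl, and 10 at 2 h, beside backgrounds of 15.4% and 24.4% over all genes with a peak. Their median log2 ratio was -1.21, against -0.34 over all genes with a peak. Without peaks met by IgG the counts were 4 at 10 h and 8 at 2 h of 19, beside backgrounds of 17.8% and 23.3%. With peaks of at least 3-fold over input they were 3 and 5 of 15, beside 14.1% and 28%.

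The period and cryptochrome genes encode the repressors of the clock. Per2 had 49.8 tags at 10 h and 439.8 at 2 h, Per1 14.8 at 10 h and 155.5 at 2 h, and Per3 15.3 at 10 h and 126.5 at 2 h. All 3 were thus low at 10 h, where Per1 had 1 peak and Per3 had 2, against a threshold of 6.02 normalised tags. IgG met both of these Per3 peaks, and every Per3 peak also lay over another gene. Cry2 had 21.4 tags at 10 h and 101.5 at 2 h, but 21.4 and 32.3 in IgG-free peaks, and its log2 ratio was 1.18 when peaks that also lie over another gene were left out. Cry1 had 326.6 tags at 10 h and 324.4 at 2 h, with a log2 ratio of -1.72 at 3-fold over input. IgG peaks met every 10 h peak of Per2 and 7 of its 10 peaks at 2 h.

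The nuclear receptors and PAR bZIP factors form the other loops of the clock. Nr1d2, the REV-ERBβ gene, had 30.1 tags at 10 h and 284 at 2 h. Nr1d1, the REV-ERBα gene, had no peak at 10 h and 17.1 tags at 2 h. Rora had 1124 tags at 10 h and 839.7 at 2 h. Hlf had 192.6 tags at 10 h and 636.4 at 2 h, but no IgG-free peak at 2 h, so that its log2 ratio was 2.73 without peaks met by IgG, and at 3-fold over input it was -0.93. Dbp went the other way in a single peak of 24.6 tags at 10 h, which also lay over another gene, with none at 2 h. Bhlhe40, a repressor gene, had no peak at 10 h and 45.5 tags at 2 h, in 1 peak that IgG met.

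Among the activators, Arntl, which encodes BMAL1, had 345.3 tags in 16 peaks at 10 h and 46.9 tags in 7 peaks at 2 h, each of the last between 5.69 and 7.11 tags; at 3-fold over input its log2 ratio was -0.29. Clock itself had 696.7 tags at 10 h and 1245 at 2 h, a log2 ratio of -0.83 that is short of the 2-fold mark and was 0.55 without peaks met by IgG.

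**Figure D5:**
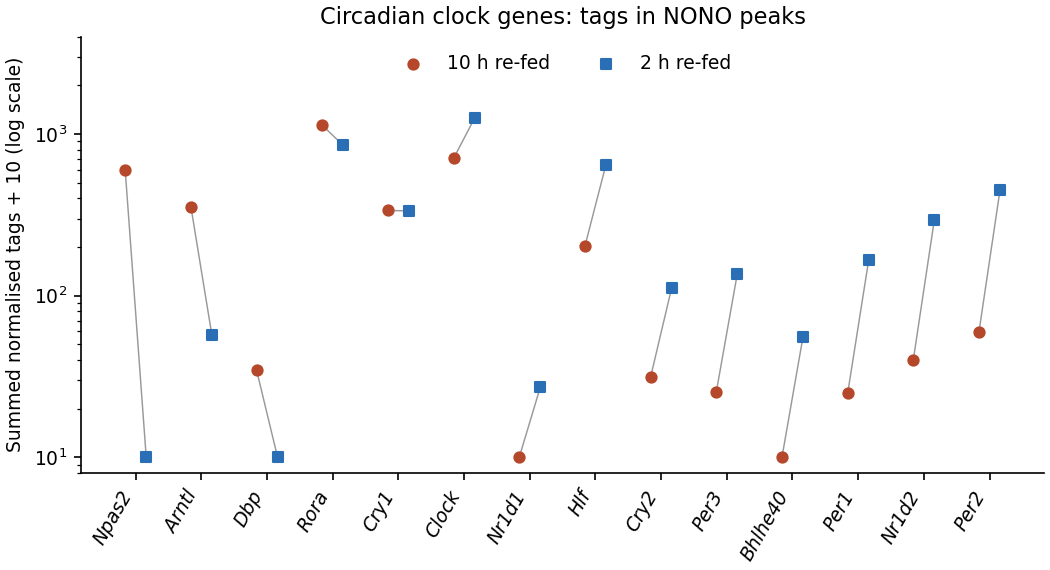
Summed normalised tags plus 10, on a log axis, for 14 of the 20 clock genes with a NONO peak, those described in the text, sorted by ratio; circles are 10 h re-fed and squares 2 h re-fed, 1 pooled library each, so there is no error bar. Npas2, Arntl and Dbp are at least 2-fold higher at 10 h, and Per2, Nr1d2 and Per1 are among those higher at 2 h.

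Promoter windows of clock genes were also examined, since Per genes are known to be driven through E-boxes (CACGTG) and Arntl through elements bound by ROR and REV-ERB proteins (TAGGTCA in the stricter form searched). Windows were RefSeq's 250 bases before to 50 after a gene start (GRCm38.p6, the mm10 build), searched on both strands. Per1 and Arntl windows are shown 5′ to 3′ on the plus strand with the match in capitals; no peak of either time met these windows.
Per1 (chr11:69098699-69098998): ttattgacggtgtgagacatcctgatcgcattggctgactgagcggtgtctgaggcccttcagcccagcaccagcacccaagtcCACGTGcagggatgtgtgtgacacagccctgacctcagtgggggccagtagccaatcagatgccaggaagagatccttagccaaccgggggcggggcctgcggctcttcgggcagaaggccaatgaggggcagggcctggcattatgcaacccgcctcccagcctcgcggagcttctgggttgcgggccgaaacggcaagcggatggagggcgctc
Arntl (chr7:113207261-113207560): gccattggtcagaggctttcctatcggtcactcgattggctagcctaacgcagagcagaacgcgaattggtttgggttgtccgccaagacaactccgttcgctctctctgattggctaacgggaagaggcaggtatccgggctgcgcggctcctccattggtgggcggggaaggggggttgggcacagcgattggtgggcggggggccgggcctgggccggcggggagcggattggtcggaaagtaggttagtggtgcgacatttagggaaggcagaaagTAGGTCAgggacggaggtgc
Of 32851 windows, 7.15% held CACGTG and 2.61% held TAGGTCA. A region at 10 h only met 220 windows, of which 8.64% held CACGTG and 3.18% TAGGTCA. A region at 2 h only met 510 windows, of which 8.63% and 1.76% held them. A shared region met 635 windows, of which 9.29% and 2.99% held them. Among the 17 clock genes matched to a window, 5 held CACGTG and 2 held TAGGTCA in any of their windows. These are counts of genes and not of windows.

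Promoters met by a strong region at 1 time were few, and a pair of them is shown. Tat encodes tyrosine aminotransferase, a liver enzyme induced by glucocorticoids, and its window lay inside an IgG-free region at 2 h only, chr8:109989620-109991295, with 539.6 tags at 2.09-fold over input. Ddc encodes DOPA decarboxylase, and one of its windows, on the minus strand, lay inside an IgG-free region at 10 h only, chr11:11890320-11891794, with 139.0 tags. Over its whole body Ddc had 1483 tags at 10 h and 1177 at 2 h, with a log2 ratio of -1.33 at 3-fold over input. Neither holds a searched motif, and no part is marked.
Tat (chr8:109990186-109990485): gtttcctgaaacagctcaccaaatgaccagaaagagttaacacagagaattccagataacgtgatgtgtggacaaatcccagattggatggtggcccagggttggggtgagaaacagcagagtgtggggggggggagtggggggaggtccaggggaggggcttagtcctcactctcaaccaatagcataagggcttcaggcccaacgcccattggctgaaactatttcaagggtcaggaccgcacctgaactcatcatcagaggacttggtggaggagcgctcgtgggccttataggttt
Ddc (chr11:11890359-11890658): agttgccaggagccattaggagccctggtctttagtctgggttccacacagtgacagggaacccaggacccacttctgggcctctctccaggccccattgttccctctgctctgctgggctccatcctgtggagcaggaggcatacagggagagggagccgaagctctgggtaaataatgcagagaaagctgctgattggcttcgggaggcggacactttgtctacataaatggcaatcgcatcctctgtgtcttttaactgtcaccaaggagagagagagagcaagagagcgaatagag

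MicroRNA hairpins were counted under each region class. Of 1005 hairpins in the RefSeq table, 123 lay under a region: 8 at 10 h only, 35 at 2 h only and 80 at both times, of which 8, 24 and 35 met no IgG peak. The same classes held 28.2%, 43.7% and 28.1% of all regions. Hairpins of a cluster can share 1 region, as those of Mir17 to Mir92-1 do, so these are not counts of regions. The let-7 region shown first, chr13:48533197-48540132 in the lincRNA gene 6720427I07Rik, held 479.3 tags at 10 h and 2008 at 2 h. At 10 h its peak ran from 48535928 to 48536872 and covered the let-7d hairpin alone, whereas the 2 h peak spanned all 3. The fold over input was 2.06 at 10 h and 2.38 at 2 h. The Mir17 to Mir92-1 region, chr14:115043071-115045233, held 81.1 tags at 2 h at 2.63-fold and had no peak at 10 h. The Mir148a region, of an abundant hepatocyte microRNA, held 475.5 tags at 10 h and 621.6 at 2 h. Peaks of at least 500 bp do not separate a hairpin from its host transcript, and mature microRNAs were not measured.

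Of 24 paraspeckle and other nuclear RNA-binding protein genes, 23 carried a peak. Of these, 1 was higher at 10 h and 9 at 2 h, beside backgrounds of 15.4% and 24.4%. Their median log2 ratio was -0.86. After median scaling the counts were 1 and 5, beside 20.7% and 19.1%. Without peaks met by IgG they were 5 and 8 of 22, beside 17.8% and 23.3%. At 3-fold over input they turned to 8 at 10 h and 3 at 2 h of 18 genes, beside 14.1% and 28%. The median there was 0.82. Hnrnpu, a scaffold-attachment factor gene, had no peak at 10 h and 492.1 tags at 2 h. Celf2, a splicing regulator gene, had 480.4 tags at 10 h and 1965 at 2 h. Pspc1, the paraspeckle partner of NONO, had 593.7 tags at 10 h and 1277 at 2 h, but 218.2 and 237.2 in IgG-free peaks, and it was short of 2-fold after median scaling as well. Sfpq had 1468 tags at 10 h and 2861 at 2 h, in a region that runs on into Gm12940, and its log2 ratio was 3.36 at 3-fold over input and 3.62 without peaks that also lie over another gene. Its highest peak fold was 3.03 at 10 h and 2.27 at 2 h, so the 3-fold setting left no 2 h peak. Nono itself had 145.5 tags at 10 h and 144.1 at 2 h.

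Among 11 nuclear long non-coding RNAs, 5 carried a peak, 2 higher at 10 h and 1 at 2 h, beside backgrounds of 15.4% and 24.4%. Neat1 was the 1 higher at 2 h, with 8227 tags in 4 peaks at 10 h and 20421 tags in 1 peak at 2 h, and IgG peaks, with 24836 tags over this gene, met all of them. After median scaling its log2 ratio was -0.99, just short of 2-fold. Its pooled fold over input was 2.33 at 10 h and 3.30 at 2 h, so here the fold differed. Input in the peaks was 3532 tags over 15581 bp of peak at 10 h and 6188 tags over 23935 bp at 2 h. These input sums thus cover unlike lengths, and the 2 h peak ran on past the gene body. Rian and Snhg11 were higher at 10 h with 16.4 and 36.1 tags and no peak at 2 h. Malat1 had no peak at either time.

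Insulin and nutrient signalling genes had no member higher at 10 h (1 without peaks met by IgG). Of 25 genes, 22 carried a peak and 8 were higher at 2 h, with a median log2 ratio of -0.81. After median scaling 6 were. The backgrounds were 15.4% at 10 h (17.8% without peaks met by IgG) and 24.4% at 2 h (19.1% after median scaling). Beside Egfr and Ghr, Igf1 had 2438 tags at 10 h and 7081 at 2 h, and a log2 ratio of -0.70 without peaks met by IgG. Prkaa2, a catalytic subunit gene of the energy sensor AMPK, had 275.8 tags at 10 h and 854.7 at 2 h, but was short of 2-fold without peaks met by IgG, at -0.94 on the log2 scale, and at 3-fold over input, at -0.97. Pik3r1, a regulatory subunit gene of PI3 kinase, had 897.3 tags at 10 h and 2215 at 2 h, but its log2 ratio was 0.25 without peaks met by IgG and -0.97 after median scaling. Insr, the insulin receptor gene, had 864.7 tags at 10 h and 1218 at 2 h, and Irs1 had 714.1 at 10 h and 744.3 at 2 h, both short of 2-fold; at 3-fold over input their log2 ratios were 0.13 and -1.75.

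Of 17 gluconeogenesis genes, 13 carried a peak, 2 were higher at 10 h and 6 at 2 h, beside backgrounds of 15.4% and 24.4%. Their median log2 ratio was -0.93. Without peaks met by IgG the counts were 3 and 4 of 12, beside 17.8% and 23.3%. G6pc, the catalytic subunit gene of glucose-6-phosphatase, had no peak at 10 h and 155.0 tags in 1 peak at 2 h. IgG met this peak, which lay almost wholly past the gene end. The region it lies in also held a 10 h peak outside the gene body. Pck1, the gene of cytosolic PEPCK, had no peak at 10 h and 66.9 tags in 1 peak at 2 h, at exactly 2-fold over input. An IgG peak over the same gene, which did not meet this one, held 2925 tags. Slc37a4, the glucose-6-phosphate transporter gene, had no peak at 10 h and 38.4 tags at 2 h. Foxo3, a factor gene under insulin control, had 749.5 tags at 10 h and 2756 at 2 h, and a log2 ratio of -0.46 without peaks met by IgG. Ppargc1a, a coactivator gene, went the other way, with 214.6 tags in 9 peaks at 10 h and 24.2 tags in 3 peaks at 2 h. Nr3c1, the glucocorticoid receptor gene, had 662.0 tags at 10 h and 2136 at 2 h, and log2 ratios of -0.84 without peaks met by IgG and 0.14 at 3-fold over input.

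Glucose uptake and glycolysis genes were split. Of 24 genes, 19 carried a peak, 4 were higher at 10 h and 7 at 2 h, beside backgrounds of 15.4% and 24.4%. Their median log2 ratio was -0.39, close to that of all genes. Without peaks met by IgG the counts were 5 and 5 of 18, beside 17.8% and 23.3%. At 3-fold over input they were 7 and 3 of 13, beside 14.1% and 28%. Mlxipl, the gene of the glucose-responsive factor ChREBP, had 186.2 tags at 10 h and 48.8 at 2 h. Pdk4, a kinase gene that restrains pyruvate oxidation, had 36.6 tags at 10 h and no peak at 2 h. Pfkfb3, a bifunctional enzyme gene of glycolytic control, had no peak at 10 h and 156.5 tags at 2 h. Slc2a2, the GLUT2 gene, had 81.0 tags at 10 h and 438.1 at 2 h, but a log2 ratio of 3.19 at 3-fold over input. That ratio set its 1 peak at 10 h, at 3.11-fold, against none, since its highest fold at 2 h was 2.69. All of its peaks also lay over another gene. Of 16 glycogen genes, 13 carried a peak, 3 were higher at 10 h and 2 at 2 h, beside the same backgrounds of 15.4% and 24.4%. After median scaling the counts were 3 and none, beside 20.7% and 19.1%. Without peaks met by IgG they were 3 and 4 of 12, beside 17.8% and 23.3%. At 3-fold over input they turned to 1 and 5 of 11, beside 14.1% and 28%, with a median log2 ratio of -0.81. Ppp1r3c, a glycogen-targeting phosphatase subunit gene, had 426.8 tags at 10 h and 133.7 at 2 h, in 1 peak each that IgG met.

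Of 29 fatty acid and sterol synthesis genes, 26 carried a peak, 7 were higher at 10 h (26.9%) and 4 at 2 h (15.4%). The backgrounds were 15.4% at 10 h and 24.4% at 2 h, and the median log2 ratio of the list was 0.07. Those counts were 5 and 3 of 23 without peaks met by IgG, beside 17.8% and 23.3%. At 3-fold over input they were 6 and 5 of 18, beside 14.1% and 28%, with a median of -0.13. Scd1, the stearoyl-CoA desaturase gene, had 475.0 tags at 10 h and 117.1 at 2 h, but none at 10 h and 71.6 at 2 h in IgG-free peaks. Sqle, the squalene epoxidase gene, had 183.9 tags at 10 h and 33.2 at 2 h, with no IgG peak. Nr1h3, the LXRα gene, had 124.8 tags at 10 h and 28.5 at 2 h, but none at 10 h and 18.5 at 2 h in IgG-free peaks. Cyp51, a demethylase gene of sterol synthesis, had 135.3 tags at 10 h and 59.7 at 2 h, and a log2 ratio of -0.70 at 3-fold over input. Gpam, a triglyceride synthesis gene, had 2437 tags at 10 h and 1188 at 2 h, and log2 ratios of 0.84 without peaks met by IgG and -2.22 at 3-fold over input.

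The 4 lipid genes on the 2 h side were all of fatty acid synthesis. Elovl6, an elongase gene, had 1240 tags at 10 h and 8600 at 2 h, but IgG met nearly all of them and its log2 ratio was 0.97 without those peaks and 2.29 at 3-fold over input. Acly, the ATP citrate lyase gene, had 377.0 tags at 10 h and 845.7 at 2 h, but 174.5 and 182.0 in IgG-free peaks, and its log2 ratio was 1.77 at 3-fold over input and -0.83 after median scaling. Fasn, the fatty acid synthase gene, had no peak at 10 h and 51.2 tags at 2 h in 1 peak that IgG met, and Thrsp, a lipogenic factor gene, had no peak at 10 h and 42.2 tags at 2 h. Of 25 fatty acid oxidation and ketogenesis genes, 22 carried a peak. Of these, 3 were higher at 10 h (13.6%, background 15.4%) and 4 at 2 h (18.2%, background 24.4%). Without peaks met by IgG the counts were 3 and 6 of 20, beside 17.8% and 23.3%. At 3-fold over input they were 3 and 4 of 13, beside 14.1% and 28%, with a median log2 ratio of -0.75. Ppara, the fasting-state lipid regulator, had 599.6 tags at 10 h and 1789 at 2 h, and Cpt1a, the carnitine palmitoyltransferase gene, had 419.2 at 10 h and 591.7 at 2 h. Without peaks met by IgG the log2 ratio of Cpt1a was -1.93, and at 3-fold over input it was 1.42.

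Of 22 bile acid and xenobiotic genes, 20 carried a peak, 8 were higher at 10 h (40.0%) and 6 at 2 h (30.0%). The backgrounds were 15.4% and 24.4%, and the median log2 ratio of the list was -0.01. At 3-fold over input 9 genes were left, 2 higher at 10 h and 5 at 2 h, beside 14.1% and 28%, with a median of -2.13. Canalicular transporter genes were among the 8: Abcb11, the bile salt export pump gene, had 4060 tags at 10 h and 1543 at 2 h, and Abcb4, the phospholipid flippase gene, had 1269 at 10 h and 298.5 at 2 h. At 3-fold over input the log2 ratio of Abcb11 was 0.33 and that of Abcb4 -2.63. The uptake transporter gene Slco1b2 had 2677 tags at 10 h and 1161 at 2 h. Cyp3a11, a drug-metabolising enzyme gene, had 2848 tags at 10 h and 520.1 at 2 h. Cyp2e1 had 335.5 tags at 10 h and Nr1i3, the CAR gene, 260.5, and neither had a peak over its body at 2 h; IgG met every peak of both. On the 2 h side, Cyp27a1, a sterol hydroxylase gene, had 181.6 tags at 10 h and 515.4 at 2 h, but 181.6 and 46.5 in IgG-free peaks.

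Of 27 plasma protein and urea cycle genes, 18 carried a peak, with a median log2 ratio of 0.50. Of these, 6 were higher at 10 h (33.3%, background 15.4%) and 4 at 2 h (22.2%, background 24.4%). After median scaling, 8 were higher at 10 h and 2 at 2 h, beside 20.7% and 19.1%. Cps1, which encodes the first enzyme of the urea cycle, had 11169 tags at 10 h and 6906 at 2 h. Its largest region, chr1:67158911-67165284, held 3700 tags at 10 h and 2311 at 2 h, the most of any IgG-free shared region by the sum of both. Cp, the ceruloplasmin gene, had 1942 tags at 10 h and 551.0 at 2 h. Apob, the gene of the lipoprotein scaffold, had 687.8 tags at 10 h and 1983 at 2 h, and a log2 ratio of -0.97 without peaks met by IgG. Asl, a urea cycle gene, had 50.4 tags at 10 h and 842.5 at 2 h, with a log2 ratio of 0.73 at 3-fold over input. Of its 2 h tags, 450.9 lay in 1 peak mostly outside the gene.

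Over all regions, introns held 85.3% of midpoints at 10 h only, 86.9% at 2 h only and 87.6% in the shared class. Among the 6 most tagged IgG-free regions per class, exons held 1 midpoint at 10 h only and 4 at 2 h only. The shared ones had their midpoints in introns or past a gene end. These regions, picked by tags, are too few to compare the classes. The most tagged at 2 h only, chr17:35917197-35919199, held 1250 tags at 2.39-fold over Ppp1r10, which encodes a nuclear regulator of protein phosphatase 1, and over Mir1894. A region of Ghr, chr15:3572004-3573193, held 1238 tags, and one of Bhmt, a betaine methyltransferase gene, chr13:93623657-93624282, held 999.0. Bhmt as a whole had 1288 tags at 10 h and 1434 at 2 h. Adk, the adenosine kinase gene, had 12366 tags at 10 h and 30160 at 2 h over 67 and 65 peaks, with log2 ratios of -0.93 without peaks met by IgG and -0.96 after median scaling. Its largest IgG-free region, chr14:21239633-21248105, held 793.4 tags in 5 peaks at 10 h and 2739 tags in 1 peak at 2 h.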

How the data were processed

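The authors' HOMER peak lists on mm10 were used as deposited; the submitters' processing notes name STAR 2.4.0k and FastQC 0.11.2. Per the file headers, peaks were called without regard to strand, from 500 bp windows merged within 1000 bp, at 2-fold over the matched input and 11 tags (8 for IgG). The deposited signal is tags in the peak per 10000000 library tags, the deposited fold change is a ratio to the matched input made by the authors, and the deposited score is HOMER's peak score, used only to rank peaks within a list. Deposited clonal fold was read for single peaks.

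Peaks were joined at 1 bp overlap and laid on 32065 protein-coding and long non-coding gene bodies of GENCODE M21, each peak counting for every body it met. Genes over which other genes lie, on either strand, therefore share tags. Input in a peak is signal over fold. Python 3.11.15, pandas 2.3.3 and scipy 1.17.1 were used, and the overlap code was tested on simulated data. The regions, gene lists and most named genes were chosen with earlier results of these data known. Named genes are, per side, the 8 largest ratios among genes with 200 tags and 3 IgG-free regions, the 6 largest IgG-free differences, list members by tags and ratio, and genes known from earlier results; a few of these genes are not reported here, and other list members, regions and promoters were chosen after their values were seen. Raw reads and genome sequence were not used here.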

Additional observations from a re-analysis of the deposited data

How the results depend on the processing

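No paired analysis was possible because both times have a single pooled library. With peaks met by IgG left out, 18.2% of regions were shared and the median log2 ratio of summed tags was -0.17; with peaks of at least 3-fold over input these were 11.8% and -0.43. Requiring an overlap of 50% of the shorter peak left 22.6% shared, and joining peaks within 1000 bp gave 39.4%, with 14653 regions at 10 h only and 22936 at 2 h only. Lists of equal length by score gave a median of -0.24, and median scaling sets it to 0. A pseudocount of 50 in place of 10 left 370 genes higher at 10 h and 968 at 2 h, and 1 of 5 gave 2047 and 3200. More genes were higher at 2 h than at 10 h under each alternative except median scaling, which gave 2075 at 10 h and 1917 at 2 h. Of the 92 genes examined singly that were at least 2-fold apart, 8 turned sign without peaks met by IgG, to log2 ratios of 0.45 (Cyp7b1), 1.76 (Cyp27a1), 0.97 (Elovl6), 2.73 (Hlf), -1.51 (Nr1h3), 0.25 (Pik3r1), -1.02 (Rbm14) and -3.03 (Scd1); 11 more fell short of 2-fold and 10 had no peak left. At 3-fold over input 14 turned sign, to -2.63 (Abcb4), 1.77 (Acly), -0.29 (Arntl), 0.73 (Asl), -1.06 (Camk1d), -0.70 (Cyp51), 0.51 (Dnase2b), 2.29 (Elovl6), 0.47 (Ghr), -2.22 (Gpam), 0.14 (Nr3c1), -0.49 (Pfkfb1), 3.19 (Slc2a2) and 0.35 (Uox); 11 more fell short of 2-fold and 35 had no peak left. Counting peaks over 1 gene only turned 1, Cry2, to 1.18, and 4 more fell short of 2-fold (Dnaja1, Gpam, Nr1h3 and Uox). Another 5 had no peak left (Dbp, Dnase2b, Per3, Rbm14 and Slc2a2). Of the genes less than 2-fold apart, 9 changed sign without peaks met by IgG and 9 at 3-fold over input. Some of these ratios set few tags at 1 time against no peak at the other, as for Slc2a2 at 3-fold over input. The cause was not tested. Sums over peaks called separately move with the length called, which is why covered length and fold stand beside the largest ones. Peaks near 11 tags limit what absence at 1 time can show.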
